A study of Mus musculus with 2 samples.

Results

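The insulin-like growth factor (IGF) axis was described by 9 of the 27998 genes in the deposited tables: the ligands Igf1 and Igf2, the receptor Igf1r, and the binding proteins Igfbp2, Igfbp3, Igfbp4, Igfbp5, Igfbp6 and Igfbp7. The members were chosen by their gene symbols, with no measured value, and all 9 were found once in each table. The cells were those of the stromal vascular fraction, which is what remains of fat after the adipocytes are removed, and came from the epididymal white adipose tissue of mice. The donors were C57BL/6J wild type males of 18 weeks, kept either on a normal chow diet (NCD) or on a high fat diet (HFD) for 12 weeks. Droplet-based single-cell libraries were made with a 10x 3' kit, with 1 library per diet, so no difference below has a replicate and no test was made. Each interval is an exact 95% interval that covers counting error only, and diet and library cannot be told apart.

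IGF1 is a secreted hormone and local growth factor that acts through the tyrosine kinase receptor IGF1R, and growth hormone drives much of its production. IGF2 binds the same receptor and is cleared by a separate receptor, IGF2R, which carries cargo to lysosomes. IGF binding proteins hold the ligands in extracellular fluid, prolong their life and limit or release them to the receptor, and proteases such as PAPP-A cut them. In white fat, IGF1 is known to come from stromal cells and macrophages and to promote the growth and differentiation of preadipocytes.

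Gene spans are given on GRCm38 from GENCODE vM21. Igf1 spans chr10:87858265-87937042 on the plus strand, Igf2 chr7:142650766-142666816 on the minus strand and Igf1r chr7:67952827-68233668 on the plus strand. Igfbp2 spans chr1:72824503-72852474 on the plus strand, and Igfbp5 lies 5457 bp away at chr1:72857932-72874884 on the minus strand, with 0 annotated genes between them. Igfbp3 spans chr11:7206086-7213923 on the minus strand and Igfbp4 chr11:99041244-99054392 on the plus strand. Igfbp6 spans chr15:102144362-102149511 on the plus strand and Igfbp7 chr5:77349240-77408041 on the minus strand. Igf1, Igf2 and Igfbp7 each overlap an annotated antisense gene. Whether counting used strand is not given in the sources used here, so reads of those partners could not be told apart from theirs. Igf2 also overlaps Gm49394 and Mir483 on its own strand, and how reads shared with them were counted is not given either.

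The DNA just before the start sites is shown for 3 binding protein genes that were spread differently over the classes below. They are Igfbp2, found in mesothelial cells, its neighbour Igfbp5, found in mesothelial cells and progenitors, and Igfbp4, shared by progenitors and macrophages. The sequences come from the RefSeq promoter table (GRCm38.p6), in which all 9 members were matched. Each run covers bases -140 to -21 from the start, 5′ to 3′ on the gene's strand, and capitals mark matches to the motifs named after each. Searched on both strands in this window of 32851 mouse promoters, GGGCGG was found in 24.4%, TTTAAA in 5.49%, TATAAA in 6.54%, CCAAT in 21.4% and TGANTCA in 3.56%, and the last pair had 0 matches in the runs shown.
Igfbp2, chr1:72824340-72824459, plus strand, with 3 matches to GGGCGG: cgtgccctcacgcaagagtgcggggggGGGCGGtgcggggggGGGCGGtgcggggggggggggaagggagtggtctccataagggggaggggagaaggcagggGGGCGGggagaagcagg
Igfbp5, chr1:72874886-72875005, minus strand, with 1 match to TTTAAA: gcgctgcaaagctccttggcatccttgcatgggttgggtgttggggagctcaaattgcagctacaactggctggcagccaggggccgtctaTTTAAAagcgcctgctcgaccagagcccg
Igfbp4, chr11:99041104-99041223, plus strand, with 1 match to TATAAA: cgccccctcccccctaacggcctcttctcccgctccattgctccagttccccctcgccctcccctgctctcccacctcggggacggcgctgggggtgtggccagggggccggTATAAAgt
The neighbours Igfbp2 and Igfbp5 thus differed in this window, which was 76.7% G or C before Igfbp2 and 59.2% before Igfbp5. A match describes the letters and says nothing of what binds there.

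The NCD table held 7365 barcodes and 33825653 UMIs (unique molecular identifiers, 1 per captured transcript), and the HFD library 6840 barcodes and 18623508 UMIs. The median barcode had 4230 (NCD) and 2020 UMIs (HFD), and 64 barcode sequences occurred in both. Levels are given as CPM, the counts per 1000000 UMIs of the cells summed, and are compared between libraries or cell classes within 1 gene. Cells were clustered without the IGF axis genes and named from marker genes, so each name means a profile like that class. Adipose progenitors numbered 3264 (NCD) and 3025 (HFD), and macrophages 2208 and 1887. Their own markers led in each: the 10 progenitor markers summed to 57811 CPM in NCD and 47292 CPM in HFD progenitors, against 927 and 6605 CPM in macrophages. Free RNA, caught in a droplet from other cells, was read from such foreign markers: relative to the whole library they stood at 3.15% (NCD) and 24.4% (HFD) in macrophages and at 2.75% and 24.1% in progenitors. The class names held different clusters in the libraries: clusters 1.0, 1.3, 3.2 and 1.2 led the NCD macrophages and 4.1, 19.1, 19.2 and 4.0 the HFD ones, while 14.0, 14.1, 10.1 and 10.0 led the NCD progenitors and 7.2, 7.0, 7.1 and 16.1 the HFD ones.

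Over the whole libraries, Igf1r was the 1 member of the 6 with at least 10 CPM that differed at least 2-fold, and it was lower in the HFD library. Of all 8160 genes with at least 10 CPM, 5.04% were at least 2-fold lower and 3.11% at least 2-fold higher in the HFD library. Igf1r stood at 33.4 CPM (1129 UMIs, 31.5 to 35.4) in the NCD library and 13.75 CPM (256 UMIs, 12.1 to 15.5) in the HFD library, 2.43-fold lower (2.12 to 2.79). Igf1 differed little, at 349 and 330 CPM, a ratio of HFD over NCD of 0.945 (0.916 to 0.975). Among the binding proteins, Igfbp4 stood at 545 and 514 CPM and Igfbp7 at 2008 and 1873 CPM. Igfbp5 stood at 72.6 and 45.1 CPM and Igfbp6 at 1079 and 788.5 CPM. Igfbp2, at 6.83 and 4.03 CPM, and Igfbp3, at 7.21 and 4.46 CPM, were under 10 CPM in both. On the log2(CPM + 1) scale, used for such medians throughout, the median log2 ratio of the 6 members was -0.28, and that of all 8160 genes was -0.20. In a whole library, fewer cells of a type and less RNA per cell cannot be told apart, and the classes below separate them in part.

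Progenitors and macrophages held most UMIs of the ligand Igf1. Progenitors held 57.1% of its UMIs in NCD cells (56.2 to 58.0) and 46.2% in HFD cells (44.9 to 47.5), and macrophages 38.9% and 43.9%. For comparison, progenitors held 48.0% and 42.6% of all UMIs, and macrophages 26.5% and 34.5%. Igf1r came mainly from progenitors in both libraries, at 59.3% and 59.4%. Among the binding proteins, mesothelial cells held most of Igfbp2, and progenitors held the largest share of each of the others. Next to progenitors came endothelial cells for Igfbp3 in the NCD library, and macrophages for Igfbp4 in both.

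**Figure D1:**
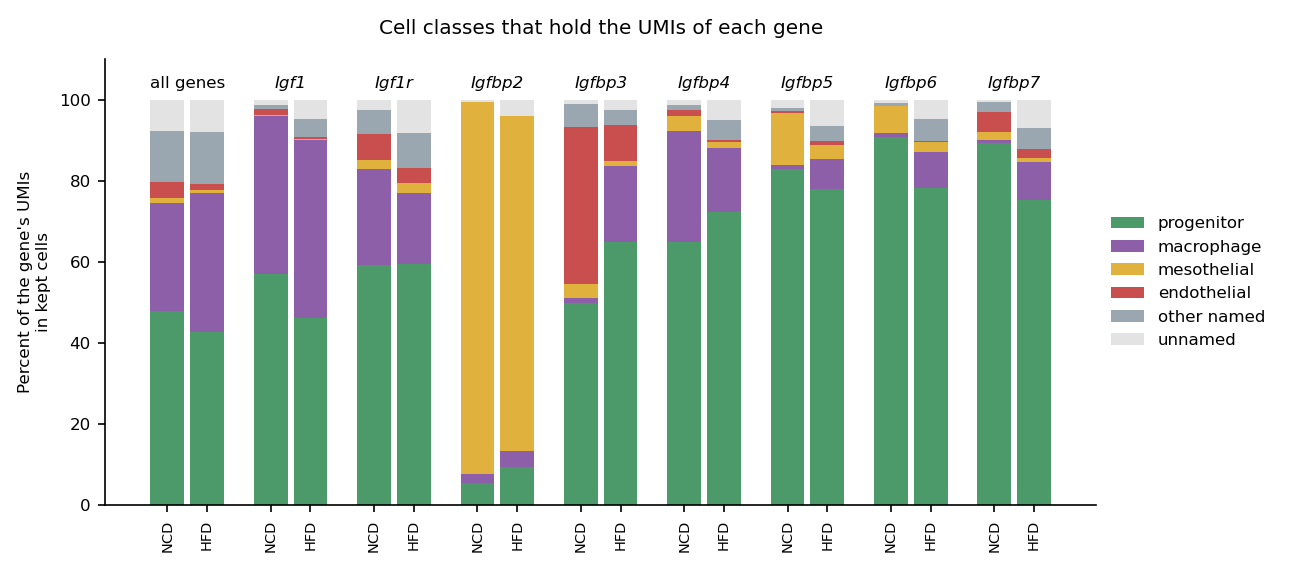
Share of each gene's UMIs (percent, vertical axis) held by each cell class, with 1 bar per gene and library (NCD and HFD) and the classes stacked from 0; the first pair of bars shows all genes. Progenitors held 57.1% and 46.2% of Igf1, while mesothelial cells held 91.9% and 82.7% of Igfbp2.

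Of the 7 named classes with at least 50 cells in each library, Igf1 in NCD cells was highest in macrophages, at 515 CPM (500 to 531), and next in progenitors, at 418 CPM (408 to 428). Endothelial cells followed with 135 CPM (116 to 157), then mesothelial cells with 61.9 CPM (40.04 to 91.3) and T cells with 36.6 CPM (22.9 to 55.4). B cells stood at 20.4 CPM (6.62 to 47.6) and dendritic cells at 9.64 CPM (5.80 to 15.1). The intervals of macrophages, progenitors and endothelial cells did not overlap with each other, while those of neighbours in the order from mesothelial cells down did. Within the endothelial class the 135 CPM was uneven: Igf1 was at 17.8 CPM in cluster 12.0 and 19.7 CPM in cluster 12.1, but at 317 CPM in cluster 12.3. The 8 macrophage markers summed to 196, 125 and 10616 CPM in those clusters, so the cluster with the high Igf1 also carried macrophage transcripts. With cluster 12.3 left out of both libraries, a choice made after seeing the data, endothelial Igf1 was 39.9 CPM (27.6 to 55.7) in NCD cells, below mesothelial cells in the order, and 97.4 CPM (58.6 to 152) in HFD cells. The ratio was then 2.44 (1.32 to 4.40). In cluster 12.2, the endothelial cluster with at least 20 cells of each library, Igf1 was 59.0 CPM (NCD) and 73.2 CPM (HFD), on 16 and 7 UMIs. Foreign progenitor markers there were at 11.8% and 21.9% of their library level, and the part of free RNA in the ratio was not tested.

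Over the same 7 classes the HFD order of Igf1 began the same way, with macrophages at 419 CPM (403 to 436) and progenitors at 357 CPM (344 to 371). The next classes lay close together, with endothelial cells at 142 CPM (98.4 to 198.5), mesothelial cells at 136 CPM (82.1 to 213), B cells at 136 CPM (100.5 to 180) and T cells at 127 CPM (101 to 158). Those 4 intervals overlapped, and dendritic cells stood lowest of the 7 at 54.4 CPM (36.9 to 77.2). Outside those classes the 88 HFD mast cells or basophils had 258 CPM (188 to 345), above the endothelial value. Foreign progenitor markers stood at 110% of their library level in these 88 cells, and their Igf1 was below the 330 CPM of the whole HFD library. How much of that Igf1 was free RNA was not tested. Against the NCD library, Igf1 was 1.23-fold lower in HFD macrophages (ratio 0.814, 0.775 to 0.855) and 1.17-fold lower in HFD progenitors (ratio 0.856, 0.818 to 0.895). It was 5.64 times as high in dendritic cells, 3.48 times in T cells and 6.66 times in B cells. In those HFD cells Igf1 reached 16.5%, 38.6% and 41.2% of its whole-library level, where foreign progenitor markers reached 18.9%, 48.6% and 27.2%. With free RNA subtracted, HFD Igf1 came to 0 CPM in dendritic and T cells and to 63.6 CPM in B cells.

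Counted per cell after thinning each cell to 2000 UMIs, an Igf1 UMI was found in 58.0% of NCD and 51.9% of HFD macrophages. In progenitors it was found in 32.3% (30.6 to 33.9) of NCD and 45.5% (42.9 to 48.1) of HFD cells, a direction against that of the CPM, so no order was read. Dendritic cells, with little Igf1, gave 1.67% and 20.2%. Thinning left out shallower cells, 176 NCD and 1546 HFD progenitors and 232 NCD and 806 HFD macrophages. Without it the shares were 72.9% and 57.4% of macrophages, 45.8% and 47.1% of progenitors, and 3.55% and 15.8% of dendritic cells.

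**Figure D2:**
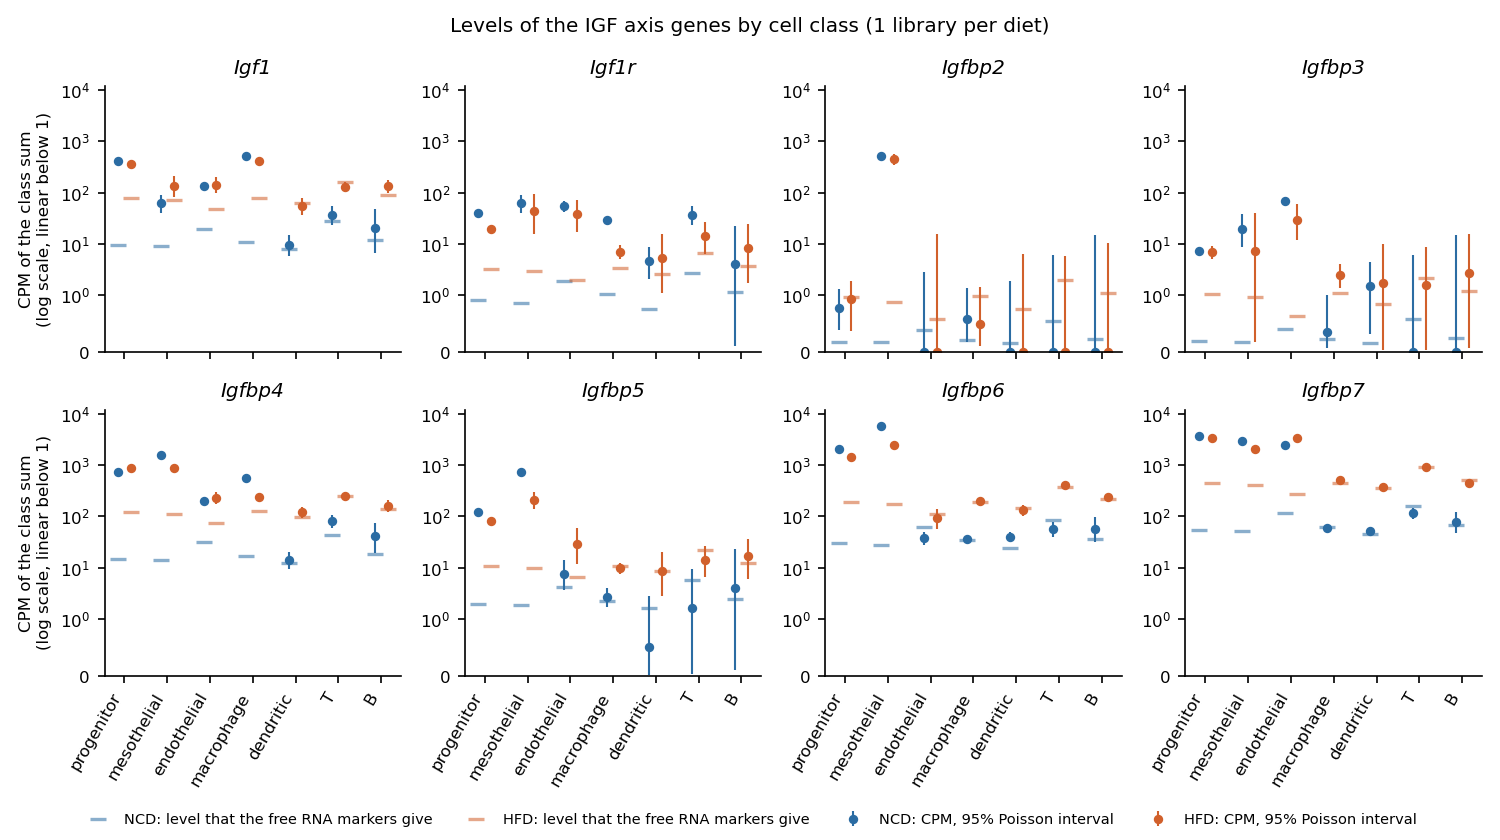
Level of each gene (CPM of the class sum, log scale that is linear below 1) by cell class, with NCD and HFD points, exact 95% Poisson intervals, and short bars for the level that the free RNA markers of that class give. Igf1r in macrophages stood at 29.5 CPM in the NCD and 7.03 CPM in the HFD library, and HFD values of Igfbp6 and Igfbp7 in immune classes lay near the bars.

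The second ligand, Igf2, a fetal growth factor expressed from the paternal allele, was at the limit of detection. It had 3 UMIs in the whole NCD library, 0.0887 CPM, and 0 in the HFD library, where 3 UMIs would be 0.161 CPM and the exact 95% upper limit of a count of 0 is 0.198 CPM. Of the 3 NCD UMIs, 1 lay in a progenitor and 2 in unnamed cells. No fold is given, since both libraries were at or under 3 UMIs.

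The receptor Igf1r was lower in the HFD library in both large classes. In progenitors it stood at 41.0 CPM (639 UMIs, 37.9 to 44.3) in NCD and 19.2 CPM (145 UMIs, 16.2 to 22.6) in HFD cells, 2.13-fold lower (1.78 to 2.57). In macrophages it stood at 29.5 CPM (254 UMIs, 26.0 to 33.4) and 7.03 CPM (43 UMIs, 5.09 to 9.47), 4.20-fold lower (3.03 to 5.94). After thinning to 2000 UMIs, 7.80% of NCD and 3.79% of HFD progenitors had an Igf1r UMI, and 6.12% and 1.30% of macrophages did. The unthinned shares were 17.2% and 4.43% of progenitors and 10.4% and 2.12% of macrophages, and dendritic cells gave 1.67% and 0% after thinning. Igf1r was the only member at least 2-fold lower of the 6 with 10 CPM in progenitors, where 4.45% of 8085 genes were that much lower and 5.23% that much higher. In macrophages Igf1r and Igfbp4 were the 2 lower members of 5, with 10.5% of 7406 genes at least 2-fold lower and 9.59% higher. The progenitor fold was close to 2: the log2 ratio was -1.09, and it was -0.98 with free RNA subtracted, -0.97 in clusters low in free RNA and -0.93 relative to the median of all genes, which was itself -0.17. In macrophages the log2 ratio was -2.07, and -2.59 with free RNA subtracted.

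Among those classes the NCD order of Igf1r was mesothelial cells at 61.9 CPM, endothelial cells at 53.8 CPM, progenitors at 41.0 CPM, T cells at 36.6 CPM, macrophages at 29.5 CPM and dendritic cells at 4.57 CPM. The HFD values were 43.0, 37.6, 19.2, 14.2, 7.03 and 5.26 CPM in the same order of classes. T cells rested on 22 and 9 UMIs and were 2.58-fold lower in the HFD library, with an interval of 1.14 to 6.38. B cells had 1 and 3 Igf1r UMIs, too few for a fold. The 49 NCD mural cells, which wrap small vessels, had 75.4 CPM of Igf1r and had 1 cell in the HFD library to set beside them.

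Within progenitors Igf1r was found in every subset. In the NCD library it stood at 43.1 CPM in Dpp4 progenitors (the Pi16 and Cd55 expressing interstitial cells), 32.8 CPM in committed preadipocytes (Col15a1, Icam1 and Pparg), 31.4 CPM in F3 progenitors (F3 and Gdf10) and 50.2 CPM in the rest. In the HFD library the values were 24.5 CPM in Dpp4 progenitors, 19.8 CPM in committed preadipocytes and 16.5 CPM in the rest, and no cluster could be named F3. In the 4 progenitor clusters that held at least 20 cells of each library the direction was not uniform. Igf1r stood at 53.3 CPM (NCD) and 36.5 CPM (HFD) in cluster 14.0, 48.6 and 72.3 CPM in 14.1, 51.4 and 25.1 CPM in 15.1, and 20.2 and 33.0 CPM in 16.0. The interval of the ratio was 0.219 to 1.63, 0.629 to 3.02 and 0.173 to 1.12 in the first 3, so at this depth a difference within a shared cluster was not detectable. Cluster 18.1, the macrophage cluster with enough cells of both, had 33.3 and 7.71 CPM, a ratio of 0.232 (0.0229 to 1.30).

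The binding protein Igfbp2 marked mesothelial cells, the lining of the fat pad. They held 91.9% of its NCD UMIs (205 UMIs, 87.5 to 95.2) and 82.7% of its HFD UMIs (62 UMIs, 72.2 to 90.4), with 1.245% and 0.787% of all UMIs. Its level there was 507 CPM (440 to 582) in the 57 NCD cells and 445 CPM (341 to 570) in the 51 HFD cells, a ratio of 0.877 (0.649 to 1.17). The interval holds 1, and the difference was not detectable at this depth. Progenitors, with most of the cells, had 12 and 7 Igfbp2 UMIs.

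Mesothelial cells also carried the neighbouring gene Igfbp5, at 725 CPM (NCD) and 208 CPM (HFD), 3.49-fold lower (2.38 to 5.30). Igfbp6 was 2.36-fold lower in them, at 5784 and 2453 CPM, and Igfbp4 1.84-fold lower, at 1606 and 875 CPM. Of 8 members with 10 CPM in mesothelial cells, 3 were at least 2-fold lower (Igfbp3, Igfbp5 and Igfbp6) and 1 higher (Igf1), where 24.4% of 8689 genes were that much lower and 16.5% higher. The class's own 10 mesothelial markers were also lower, at 7319 CPM summed in NCD and 2876 CPM in HFD cells. Cluster 0.0 led the NCD and cluster 0.2 the HFD mesothelial cells, and the class medians were 6307 and 2156 UMIs. Whether these binding proteins differed apart from that weaker profile was not tested. Macrophage markers reached 21.8% of their library level in HFD mesothelial cells. Igf1 there was 61.9 and 136 CPM, and its direction turned when cells were classed 1 by 1 on their own marker scores.

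Igfbp3, the main carrier of IGF1 in blood, was found mainly in progenitors and, in the NCD library, also in vessel cells. Endothelial cells held 38.8% of its NCD UMIs and 8.75% of its HFD UMIs, and progenitors 49.8% and 65.0%. Of all UMIs, endothelial cells held 4.01% and 1.35% and progenitors 48.0% and 42.6%, so the NCD progenitor share was near that of all genes. Macrophages held 15 of the 80 HFD UMIs, 18.8% (10.9 to 29.03), where they held 34.5% of all UMIs. In endothelial cells Igfbp3 stood at 67.7 CPM (88 UMIs) and 29.2 CPM (7 UMIs), 2.31-fold lower (1.08 to 5.92), and NCD mural cells had 47.1 CPM. In progenitors it stood at 7.25 and 6.89 CPM. Endothelial cells were fewer in the HFD library, 83 against 332. Of 7 members with 10 CPM in endothelial cells, Igfbp3 was at least 2-fold lower, and Igfbp5 and Igfbp6 were at least 2-fold higher. As measured, Igfbp6 was 37.7 and 91.9 CPM and Igfbp5 7.69 and 29.2 CPM. With free RNA subtracted, Igfbp6 came to 0 CPM in both libraries, Igfbp5 to 3.77 and 26.6 CPM, and Igfbp3 to 71.3 and 33.4 CPM. The background there was 12.3% of 8524 genes lower and 9.54% higher. Without cluster 12.3 the folds were 2.52-fold lower for Igfbp3 (1.17 to 6.47), 2.62 times as high for Igfbp5 (0.783 to 7.96) and 1.86 times for Igfbp6 (0.988 to 3.35), so both of these last intervals hold 1.

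Igfbp4, which binds both ligands and is the classic substrate of PAPP-A, went in opposite directions in the large classes. In progenitors it was 736 CPM (723 to 750) in NCD and 869 CPM (848 to 890) in HFD cells, a ratio of 1.18 (1.14 to 1.22). In macrophages it was 562 CPM (546 to 578) and 236 CPM (224 to 249), 2.38-fold lower (2.24 to 2.52). After thinning, 64.1% of NCD and 35.5% of HFD macrophages had an Igfbp4 UMI, against 4.33% and 19.1% of dendritic cells, and without thinning the macrophage shares were 79.0% and 45.0%. With free RNA subtracted the macrophage levels were 562 and 147 CPM, so the difference was larger without the foreign share. Macrophages held 27.4% (NCD) and 15.9% (HFD) of Igfbp4 UMIs, and progenitors 65.0% and 72.2%. In endothelial cells Igfbp4 stood at 201 and 230 CPM, and without cluster 12.3 at 122 and 231 CPM, a ratio of 1.89 (1.30 to 2.71). In endothelial cluster 12.2, found in both libraries with 96 and 40 cells, Igfbp4 was 207 and 209 CPM, so that difference was not seen there.

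Macrophage subsets differed in Igfbp4 within each library. In the NCD library the 1476 resident macrophages, named from markers such as Lyve1 and Cd163, had 697 CPM (675 to 720), 2.15 times the 324 CPM (305 to 345) of the 732 others (interval 2.01 to 2.31). In the HFD library the 1192 lipid-associated macrophages, named from markers such as Gpnmb and Trem2, had 189 CPM (176 to 203), 1.76-fold lower (1.58 to 1.95) than the 332 CPM (307 to 359) of the 644 others. With free RNA subtracted those HFD levels were 80.6 and 277 CPM. Macrophages of neither kind had nearly the same measured level in both libraries, with a ratio of 1.03 (0.927 to 1.13). With free RNA subtracted they had 317 CPM (NCD) and 277 CPM (HFD). Clusters 1.3 and 2.1 led them in the NCD library and 19.2 and 4.0 in the HFD library, so they were not the same cells. The 51 HFD cells named resident, all in cluster 17.1, had 280 CPM (189 to 400), below the NCD resident level. In cluster 18.1, found in both libraries, Igfbp4 was 410 and 243 CPM, a ratio of 0.592 (0.416 to 0.840).

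Summed over each subset, Igf1 and Igf1r were also higher in resident than in other NCD macrophages, but the others were uneven. Cluster 1.3, with 417 of the 732 others, had 670 CPM of Igf1, above every resident cluster, of which 1.2 was highest at 635.5 CPM. Cluster 2.1, also among the others, had 184 CPM. Igf1r in cluster 1.3 was 27.2 CPM, within the 24.6 to 42.3 CPM of the resident clusters. Igf1 stood at 555 CPM in NCD resident and 446 CPM in other NCD macrophages, and at 428 CPM in HFD lipid-associated, 405 CPM in other and 346 CPM in resident HFD macrophages. The ratio of other over resident NCD macrophages was 0.803 (0.753 to 0.856), and that of lipid-associated over other HFD macrophages 1.06 (0.970 to 1.15), an interval that holds 1. Igf1r stood at 32.7 and 24.0 CPM in resident and other NCD macrophages, and at 5.66 and 8.75 CPM in lipid-associated and other HFD macrophages. Those ratios were 0.735 (0.554 to 0.968) for other over resident and 0.647 (0.331 to 1.29) for lipid-associated over other. The HFD resident cells had 28.0 CPM of Igf1r on 3 UMIs.

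Most UMIs of Igfbp5, Igfbp6 and Igfbp7 lay in progenitors, which held 48.0% (NCD) and 42.6% (HFD) of all UMIs. By level, Igfbp5 and Igfbp6 were higher in mesothelial cells, as given above. Progenitors held 82.9% and 77.9% of Igfbp5, 90.9% and 78.4% of Igfbp6, and 89.4% and 75.4% of Igfbp7 in the NCD and HFD libraries. Over the whole class all 3 were lower in HFD progenitors, while within the subsets described further on Igfbp5 and Igfbp7 went in both directions. Igfbp5 stood at 122 CPM (116 to 127) and 83.3 CPM (76.9 to 90.0), 1.46-fold lower. Igfbp6, which prefers IGF2 over IGF1, stood at 2039 and 1449 CPM, 1.41-fold lower (1.38 to 1.44). Igfbp7, a low-affinity relative found around vessels, stood at 3747 and 3313 CPM, 1.13-fold lower, which is close to the median of all genes, and with free RNA subtracted its log2 ratio was -0.01. The median log2 ratio of the 6 members with 10 CPM in progenitors was -0.36, against -0.21 for all genes tested.

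Outside progenitors, Igfbp7 was high in vessel cells. Endothelial cells had 2522 CPM of it in the NCD and 3317 CPM in the HFD library, a ratio of 1.31 (1.21 to 1.42). Without cluster 12.3 the values were 3400 and 3921 CPM, a ratio of 1.15 whose interval starts at 1.06. NCD mural cells had 5182 CPM. Mesothelial cells had 2987 and 2051 CPM. In macrophages both Igfbp6 and Igfbp7 were higher in the HFD library, at 36.5 and 200 CPM for Igfbp6 and 58.8 and 508 CPM for Igfbp7. Those levels were 3.38% and 25.4% of the library level for Igfbp6 and 2.93% and 27.1% for Igfbp7, where foreign progenitor markers were at 3.15% and 24.4%. With free RNA subtracted, Igfbp6 in macrophages came to 2.55 and 10.9 CPM and Igfbp7 to 0 and 68.4 CPM.

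The same held for the other immune classes, where nearly every member with 10 CPM was higher in the HFD library. In T cells 5 of 6 members were at least 2-fold higher (Igf1, Igfbp4, Igfbp5, Igfbp6 and Igfbp7) and 1 lower (Igf1r), with 13.3% of 7840 genes higher and 14.6% lower. In dendritic cells 4 of 4 were higher, with a background of 9.53% higher and 8.88% lower, and in B cells 5 of 5, with 19.3% higher and 14% lower. T cells had 81.5 and 247 CPM of Igfbp4, dendritic cells 14.2 and 119 CPM, and B cells 40.8 and 161 CPM. Foreign progenitor markers, relative to their library level, were at 8.07% and 48.6% for T, 2.27% and 18.9% for dendritic and 3.43% and 27.2% for B cells. With free RNA subtracted, Igfbp4 came to 40.8 and 0 CPM in T cells, 1.89 and 27.1 CPM in dendritic cells and 22.9 and 29.1 CPM in B cells. The part of free RNA in these counts was not tested beyond the subtracted values given.

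Inside the progenitor class the ligand and the binding proteins were divided among subsets, most sharply in the NCD library. Igf1 was 20.4 CPM (15.6 to 26.2) in the 595 NCD Dpp4 progenitors, 296 CPM in the 719 committed preadipocytes, 273 CPM in the 1326 others and 1206 CPM (1168 to 1245) in the 624 F3 progenitors. F3 progenitors were thus 59.1 times (46.0 to 77.3) above Dpp4 progenitors. They made up 19.1% of NCD progenitors and held 58.4% of the class's Igf1 UMIs, whereas Dpp4 progenitors, 18.2% of the cells, held 0.953%. The clusters of 1 subset differed too: Igf1 was 1841 CPM in cluster 10.0 and 397 CPM in cluster 10.3, both F3, and 108 and 487 CPM in clusters 10.1 and 10.2, both committed. Genes leading cluster 10.0 were Inmt, Sult1e1, Penk, Aldh1a3, Agt and Gdf10.

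Igfbp5 had the opposite distribution. NCD Dpp4 progenitors had 550.5 CPM of Igfbp5, committed preadipocytes 3.09 CPM, F3 progenitors 4.76 CPM and the others 33.8 CPM. Dpp4 progenitors were 115.7 times (70.0 to 207) above F3 progenitors and 178 times (99.5 to 358) above committed preadipocytes, and they held 88.2% of the class's Igfbp5 UMIs. Igfbp6 was also highest in Dpp4 progenitors, at 3469 CPM against 1295 CPM in F3 progenitors, 1360 CPM in committed preadipocytes and 2112 CPM in the others. Igfbp7 ran the other way, at 1458 CPM in Dpp4 progenitors, 5277 CPM in F3 progenitors, 4358 CPM in committed preadipocytes and 3738 CPM in the others. Igfbp4 was the most even, at 599, 590, 658 and 935.5 CPM.

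**Figure D3:**
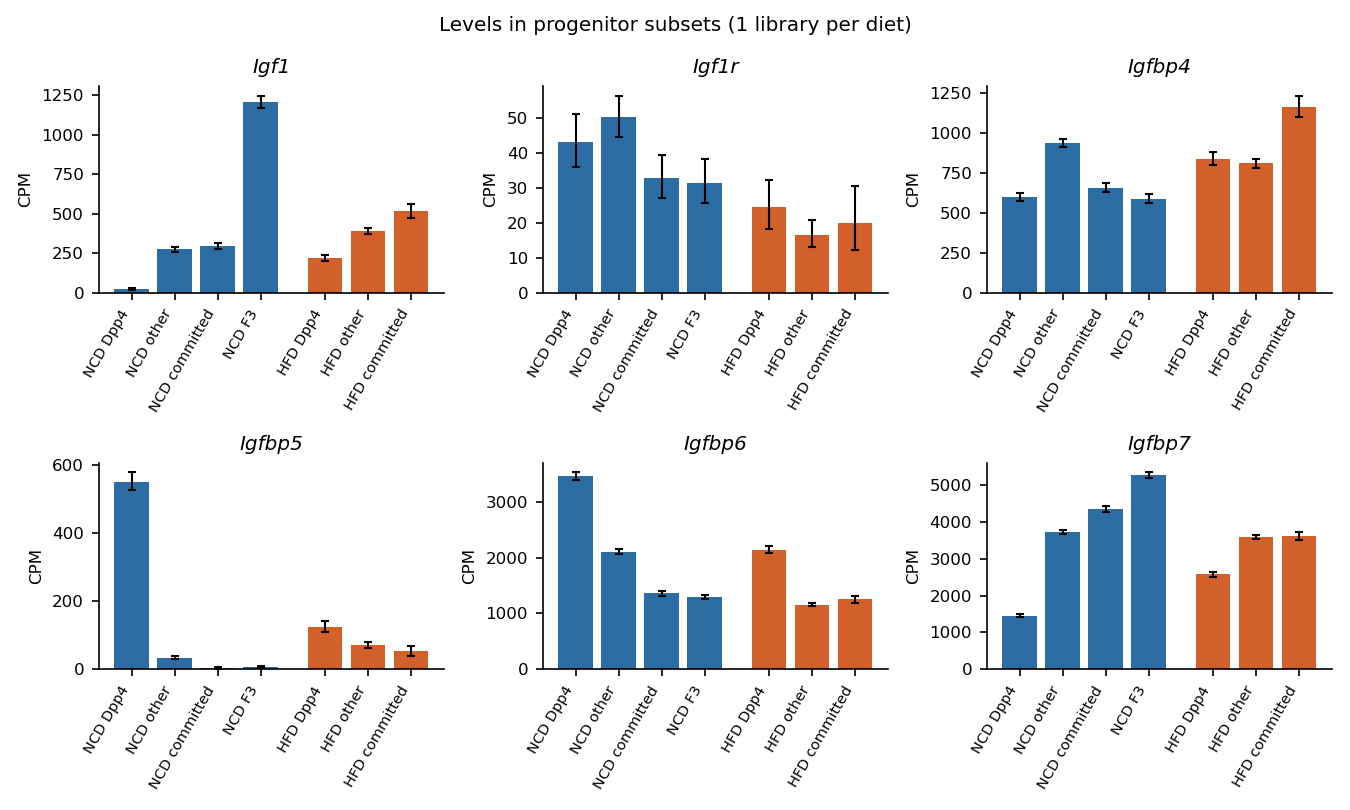
Level of 6 genes (CPM of the subset sum, linear axes from 0) in the progenitor subsets of each library (NCD blue, HFD orange), with exact 95% Poisson intervals. NCD F3 progenitors stood at 1206 CPM for Igf1 and 4.76 CPM for Igfbp5, and NCD Dpp4 progenitors at 20.4 and 550.5 CPM.

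The HFD subsets were less far apart. Igf1 was 217 CPM (197 to 237) in the 801 HFD Dpp4 progenitors, 516 CPM in the 262 committed preadipocytes and 387.5 CPM in the 1962 others, so committed preadipocytes stood 2.38 times (2.10 to 2.70) above Dpp4 progenitors. Igfbp5 was 124 CPM in HFD Dpp4 progenitors, 52.0 CPM in committed preadipocytes and 70.8 CPM in the others, and the first was 2.39 times (1.78 to 3.26) the second. Igfbp6 was 2146, 1251 and 1157 CPM, Igfbp7 2581, 3619 and 3595 CPM, and Igfbp4 840, 1167 and 810 CPM in that order. For all 5 genes the order of Dpp4 progenitors and committed preadipocytes was that of the NCD library. No HFD cluster was named F3. The 32 HFD cells of cluster 14.1 scored highest for the F3 markers but had 2 of them, under the number the naming asked for, and are counted among the others.

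Between libraries, Igf1 in the Dpp4 subset was 10.6 times (8.13 to 14.1) as high in the HFD library, and Igfbp5 was 4.43-fold lower (3.89 to 5.06). Igfbp5 went the other way in the remaining subsets, at 16.8 times as high (8.72 to 35.7) in HFD committed preadipocytes and 2.09 times (1.75 to 2.52) in the others. Igfbp7 was 1.77 times as high (1.70 to 1.84) in HFD Dpp4 progenitors and 1.20-fold lower (1.16 to 1.248) in committed preadipocytes. Igf1 was also higher in HFD committed preadipocytes, 1.75 times (1.57 to 1.94), and in the others, 1.42 times (1.32 to 1.52), while over the whole class it was 1.17-fold lower. The F3 subset, with 58.4% of the Igf1 UMIs of NCD progenitors, had no named counterpart in the HFD library. Macrophage markers were at 18.3% of their library level in HFD Dpp4 progenitors, 4.59% in committed preadipocytes and 31.4% in the others, and Igf1 in HFD Dpp4 progenitors was 191 CPM with free RNA subtracted. Subset names were relative to each library's own progenitors, and each library's subsets were made of different clusters. Cluster 14.0 counted among the others in the NCD library (701 cells) but as Dpp4 in the HFD library (35 cells). The same name thus need not mean the same cells, and these folds are not changes within 1 fixed cell type. In 15.1, the cluster named Dpp4 in both libraries, with 294 and 47 cells, Igf1 was 28.7 and 75.4 CPM, a ratio of 2.63 (1.42 to 4.71). In that cluster Igfbp5 was 244 and 230 CPM, a ratio of 0.944 (0.696 to 1.26) that holds 1, and Igfbp4 682 and 1072 CPM. So the library difference in Igfbp5 over the Dpp4 subset was not seen in its shared cluster.

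**Figure D4:**
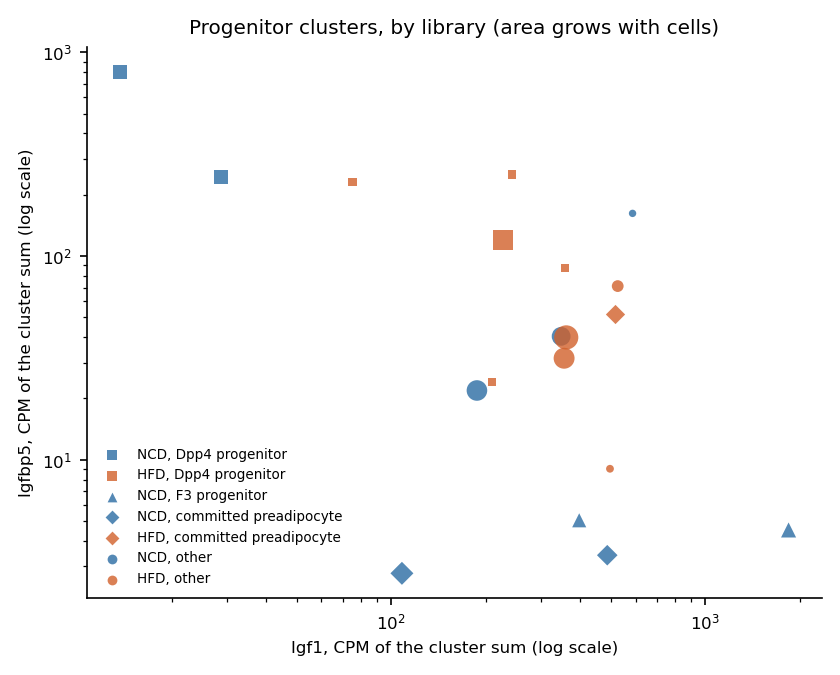
Igf1 (horizontal axis) against Igfbp5 (vertical axis), both in CPM of the cluster sum on log scales, with 1 symbol per progenitor cluster and library whose shape gives the subset, colour the library and area the number of cells. The NCD cluster at the top left had 13.7 CPM of Igf1 and 799 CPM of Igfbp5, and cluster 10.0, bottom right, 1841 and 4.53 CPM.

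The same counts were also read cell by cell, pooled over the subsets. The shares thus carry the split between subsets given above, and no share within a subset was taken. Among NCD progenitors thinned to 2000 UMIs, an Igf1 UMI was found in 5.86% (3.45 to 9.22) of the 290 cells with an Igfbp5 UMI and in 35.0% (33.2 to 36.8) of the 2798 without. Among HFD progenitors the shares were 36.2% (28.2 to 44.8) of 138 cells and 46.5% (43.8 to 49.2) of 1341 cells, a smaller gap. The receptor gave no such contrast: an Igf1 UMI was found in 31.5% (25.7 to 37.8) of NCD progenitors with an Igf1r UMI and in 32.3% (30.6 to 34.1) of those without. For Igfbp6 the NCD shares were 30.5% with and 49.8% without, and for Igfbp7 33.1% and 5.32%. These cells share 1 library, so the intervals cover counting error and not the difference between animals.

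The other genes of the pathway were followed with a list of 38, counted where at least 10 CPM was reached in either library. In progenitors 25 of the 38 reached it, of which 1 was at least 2-fold higher and 3 at least 2-fold lower in the HFD library, beside the 5.23% and 4.45% of all genes given above. Their median log2 ratio was -0.32. The largest difference among genes with 50 CPM was Nov (CCN3), a matrix protein with an IGFBP-like domain, at 78.1 and 14.6 CPM, 5.35-fold lower (4.40 to 6.57). Nov lay mostly in the Dpp4 subset, with 316 CPM (NCD) and 35.8 CPM (HFD) there, and 40.7 and 6.42 CPM in the others. The insulin receptor substrate Irs1 (21.8 and 9.81 CPM, 2.22-fold lower), the protease Pappa (11.4 and 4.91 CPM, 2.33-fold lower) and the matrix gene Wisp1 (3.21 and 11.5 CPM, 3.59 times as high) were under 50 CPM and are named after their values were seen.

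Other list genes were closer in both libraries, beside a median log2 ratio of -0.17 for genes with 50 CPM in progenitors. Foxo1, a transcription factor kept out of the nucleus by insulin and IGF signals, was 51.7 and 31.3 CPM. The kinase Akt1 was 65.0 and 44.5 CPM. Socs2, a feedback inhibitor of growth hormone signalling, was 102 and 76.0 CPM. The clearance receptor Igf2r was higher, at 49.2 and 71.1 CPM, a ratio of 1.45 (1.29 to 1.62). Igfbp1, the liver binding protein, had 0 UMIs in the progenitors and macrophages of both libraries.

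In macrophages list genes were found on both sides of 2-fold. Of 17 genes with 10 CPM, 6 were at least 2-fold higher and 4 at least 2-fold lower in the HFD library, beside the 9.59% and 10.5% of all genes, and their median log2 ratio was -0.05 against -0.06 for all genes. Igf2r, which takes IGF2 and lysosomal enzymes to lysosomes, stood at 1.63 CPM (14 UMIs) in NCD and 57.4 CPM (351 UMIs) in HFD macrophages, 35.3 times as high (20.8 to 65.2). With free RNA subtracted the values were 0.787 and 57.0 CPM, so the difference remained without the foreign share. Igf2r overlaps the antisense gene Airn, and their reads could not be told apart.

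Igf2r was highest in lipid-associated macrophages, at 73.6 CPM (65.5 to 82.4), against 25.7 CPM (19.1 to 33.9) in other HFD macrophages. In the NCD library it was 0.913 CPM in resident and 2.88 CPM in other macrophages, on 5 and 9 UMIs. The RNA binding protein gene Igf2bp2, under 50 CPM and named after its values were seen, had a like pattern. It stood at 0.814 and 20.9 CPM over all macrophages (7 and 128 UMIs, 25.7 times as high, 12.1 to 65.3) and at 28.1 CPM in lipid-associated against 7.20 CPM in other HFD macrophages. Over the whole libraries Igf2r stood at 27.4 and 58.9 CPM.

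The other 4 higher macrophage genes came to 12.5 CPM or less in HFD cells with free RNA subtracted. The protease gene Htra3 was 18.4 and 119 CPM and the matrix gene Cyr61 12.3 and 51.4 CPM, and subtracted they were 4.10 and 12.5 CPM and 4.68 and 0 CPM. Htra1 and Grb10, under 50 CPM and named after their values were seen, stood at 4.42 and 31.2 CPM and at 2.21 and 10.1 CPM. Lrp1, a scavenger receptor that also binds IGFBP3, was 123 and 213 CPM, 1.72 times as high. The 4 lower genes were all under 50 CPM and are named after their values were seen. They were the substrate Irs2 (23.7 and 8.18 CPM), the insulin receptor Insr (16.5 and 6.87 CPM), Stat5b (19.9 and 8.83 CPM) and Akt2 (45.9 and 21.6 CPM). Akt1, at 81.0 and 54.8 CPM, was lower by less than 2-fold.

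**Figure D5:**
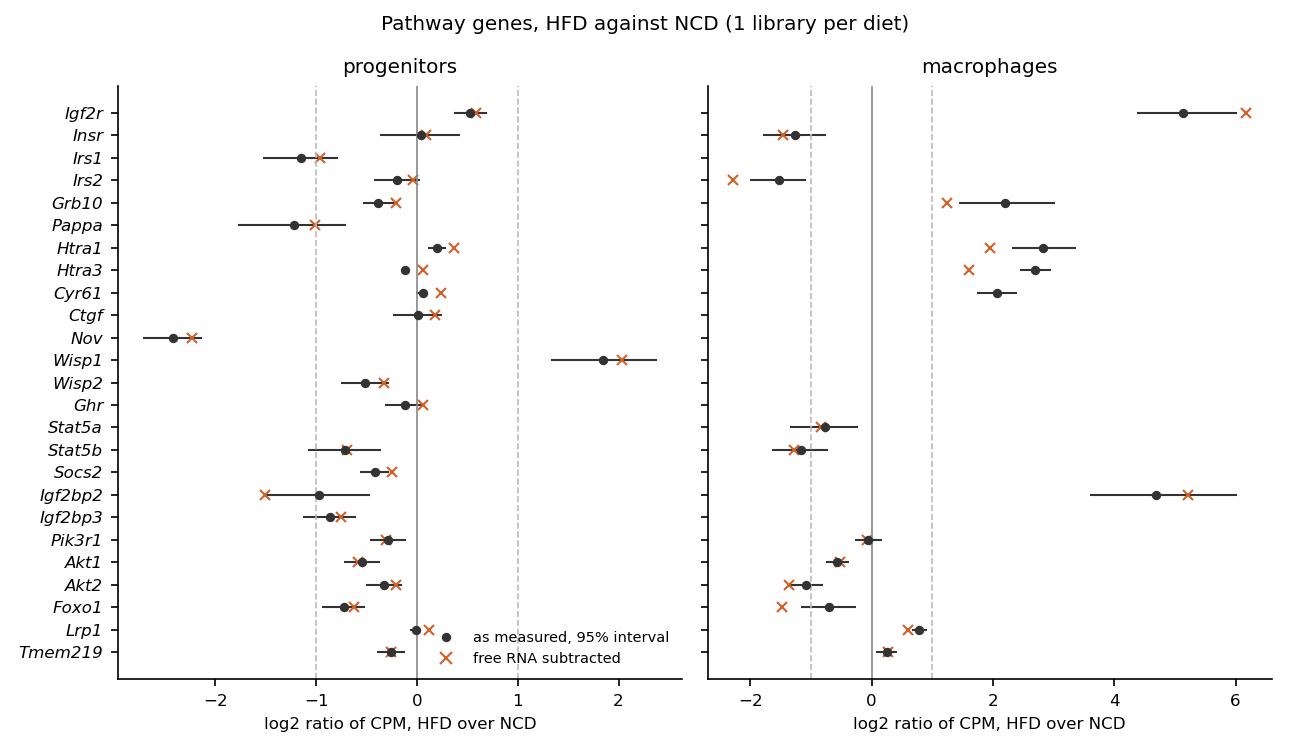
Log2 ratio of CPM, HFD over NCD, of the reported pathway genes with at least 10 CPM in progenitors (left) and macrophages (right), with exact 95% intervals as lines, values with free RNA subtracted as crosses, and dashed lines at 2-fold. Igf2r and Igf2bp2 lie far right in macrophages, at ratios of 35.3 and 25.7, and Nov far left in progenitors, where it was 5.35-fold lower; a cross is missing where the subtracted level was 0.

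In the smaller immune classes the list was counted in the same way. In T cells 7 of 18 genes were higher and 3 lower, where 13.3% and 14.6% of all genes were. Among those with 50 CPM, Cyr61 (4.99 and 108.5 CPM), Htra3 (39.9 and 214 CPM) and Htra1 (8.32 and 67.6 CPM), all high in progenitors, were higher. Akt1 was 4.16-fold lower, at 105 and 25.2 CPM, and Socs2 2.51-fold lower, at 63.2 and 25.2 CPM. In dendritic cells 4 of 16 were higher, among them Htra3 (11.7 and 105 CPM) and Lrp1 (31.5 and 70.2 CPM), and 2 lower, beside 9.53% and 8.88% of all genes. In B cells, of which the NCD library had 66, 10 of 18 were higher and 3 lower, beside 19.3% and 14%. Foreign progenitor markers were higher in the HFD cells of all 3 classes, as given above.

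The genes most like each member were found by the Pearson correlation of log2(CPM + 1) over 14 profiles (7 classes in each library) among 2776 genes, which share libraries, depth and free RNA. Igf1 was closest to Sepp1 (r = 0.921), Selenbp1 (0.909) and Gas7 (0.905). Igfbp2 was closest to the mesothelial keratin gene Krt19 (0.996), then Cxadr and Lgals2. Igfbp4 was closest to Timp2 (0.966), Igfbp5 to Efemp1 (0.974) and Prss23 (0.970), Igfbp6 to Htra1 (0.985), and Igfbp7 to Sparc (0.992). Igf1 had the lowest best match of these 6, and Igf2, Igf1r and Igfbp3 stayed under the 100 CPM needed for this comparison.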

How the data were processed

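Single-cell 3' libraries of the stromal vascular fraction were used, 1 of NCD mice and 1 of HFD mice. The authors deposited raw UMI counts per gene and barcode, limited to called cells. The tools named are Cell Ranger and Seurat, per the submitters' processing notes, which give mm10 (GRCm38) as the build and state no versions. Per the labels' protocols, tissue was digested for 30 min at 37 °C with 1 mg/ml collagenase, 6000 cells were loaded per channel, and each cell received 50000 reads or more. The members and gene lists were chosen with earlier results of these data known. The naming rule was completed with the first clusters already in view.

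Cells with at least 500 genes, 1000 UMIs and at most 20% mitochondrial UMIs were kept (7344 NCD and 6786 HFD barcodes). Scrublet called 183 NCD doublets. Its own threshold called 0 in the HFD library, so the top 5% by score, 339 barcodes, were left out there, which left 7161 and 6447 cells. Both libraries were clustered together without integration (scanpy 1.11.5, Leiden method of igraph 0.11.9, Python 3.11.15, scikit-learn 1.9.0), and the 9 members and 38 pathway genes were left out of the clustering genes. The 24 first clusters were split into 77, and 6.09% of NCD and 8.78% of HFD cells stayed unnamed. A cluster was named by the class whose markers led, with at least 3 markers past 1.5-fold. Progenitor subsets were named against the progenitors of the same library. Macrophage subsets were named against the mean of both libraries' macrophage profiles.

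UMI counts were summed per library and class, as CPM. Sums have exact Poisson, shares Clopper-Pearson and ratios conditional binomial 95% intervals (scipy 1.17.1), which cover counting error only. Classes with at least 50 cells in each library were compared, and a gene was counted as differing past 2-fold with at least 10 CPM in either. All members were named in each class. In classes with at least 100 cells, up to 6 pathway genes with 50 CPM were named, those with the largest log2 ratio either way. The values of 1 list gene are not reported here, but it is in the list counts. Free RNA was the median of 10 progenitor or 8 macrophage markers in classes that should lack them, as a percentage of the library level, and that share of the library profile was subtracted where stated. The code was tested on simulated data. Alternatives changed the cell filter, doublets, naming, clustering genes, free RNA, scaling and thinning depth.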

Additional observations from a re-analysis of the deposited data

Results flagged for a closer look

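For 4 binding proteins the libraries differed in opposite directions in progenitors and in macrophages, and with 1 library per diet none of these differences was tested. The ratio of HFD over NCD CPM of Igfbp4 was 1.180 in progenitors and 0.4208 in macrophages. That of Igfbp5 was 0.6841 and 3.671, that of Igfbp6 0.7103 and 5.490, and that of Igfbp7 0.8843 and 8.638. The macrophage levels of the last 3 lay near the level that foreign progenitor markers give in those cells, while Igfbp4 in HFD macrophages lay above it.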

How the results depend on the processing

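No paired analysis was possible because there is 1 library per diet, and for the same reason no replicate could be left out. Over all values and alternatives, 561 pairs were compared: 377 moved by less than the counting interval, 182 moved further and 2 called values turned. Of 453 log2 ratios 16 changed sign, and of 275 past 2-fold 248 remained past it. The causes were not tested. The log2 ratio (HFD over NCD) of Igf1 turned from 1.80 to -0.50 in T cells when only clusters low in free RNA were used, and from 1.14 to -0.14 in mesothelial cells with classes set cell by cell from marker scores. Igfbp7 over the whole library turned from -0.10 to 0.06 with the NCD class makeup in both libraries.

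Igf1r went from -2.07 to -2.59 in macrophages with free RNA subtracted, and from -1.09 to -1.42 in progenitors as a mean over cells. Igfbp4 in macrophages, at -1.25, was -1.13 by marker score per cell, -1.54 in clusters low in free RNA, -1.38 with doublets kept, -1.94 with free RNA subtracted and -1.42 under the stricter cell filter (1000 genes, at most 10% mitochondrial UMIs). Between lipid-associated and other HFD macrophages Igfbp4 differed by -0.81 on the log2 scale. That was -1.29 with no cell filter, -1.01 under the stricter one and -1.78 with free RNA subtracted. Between resident and other NCD macrophages the 1.10 became 1.21 with doublets kept, 0.94 with no filter and 0.89 under the stricter one. Igf1 in NCD Dpp4 minus F3 progenitors went from -5.89 to -6.66 with free RNA subtracted.

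At a floor of 50 CPM the pathway counts in macrophages went from 6 to 3 higher and from 4 to 0 lower, and in progenitors from 1 to 0 higher and from 3 to 1 lower. The stricter filter gave 2 lower in macrophages and 2 higher in progenitors, and free RNA subtraction 3 higher in macrophages. Thinned to 1500 UMIs, 28.0% of NCD and 35.3% of HFD progenitors had an Igf1 UMI. The progenitor share of Igf1 UMIs, 57.1% and 46.2%, was 51.3% and 47.8% with doublets kept and 58.5% and 50.7% under the stricter filter. Subtraction in subsets and in the pathway list, and leaving out endothelial cluster 12.3, were chosen after seeing the data. Depth limits Igf2 (3 and 0 UMIs), Igfbp3 (80 UMIs in HFD cells) and Igf1r (43 UMIs in HFD macrophages).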
